A study of Mus musculus with 24 samples.

Results

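Lgr5med and Lgr5low crypt cells of PBS-treated mice were compared, as neighbouring gates of one cell sort. The comparison took 6 of the 24 libraries of the series, chosen by their labels: 3 Lgr5med and 3 Lgr5low libraries, 1 of each from every PBS mouse. The mice were male Lgr5-EGFP C57BL/6 animals, so every group carried the reporter allele, in which green fluorescence follows the promoter of Lgr5. They received the vehicle PBS by intraperitoneal injection every 12 h for 5 days, and tissue was taken on day 6. The mice of replicates 1 and 2 were 15 weeks old and the mouse of replicate 3 was 11 weeks old, so age went with 1 animal. The labels call the animals littermates, which the ages do not allow for all 3 together. Dissociated small-intestinal crypts were sorted as CD31-negative, CD45-negative and propidium iodide-negative cells by EGFP and CD24. Lgr5med-CD24low cells are labelled immediate progenitors and Lgr5low-CD24low cells subsequent progenitors. The Lgr5high-CD24low (stem) and Lgr5neg-CD24neg (differentiated) libraries of the same mice were used for the spread and for the levels on either side of the step, and the same gates of 3 mice given NRG1 (neuregulin 1, 7.5 µg per injection, same schedule) as a separate set of animals with the same ages.

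In the small-intestinal crypt, Lgr5-expressing columnar stem cells sit at the base, where Wnt signals are strongest. Their daughters move upward as transit-amplifying progenitors, which divide, lose Wnt target expression and commit either to the absorptive lineage or, where Notch signalling is low, to secretory cells. Absorptive cells become enterocytes, which carry a brush border of microvilli with digestive enzymes and transporters and pack dietary fat into chylomicrons.

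Total counts were 16980822 to 19046791 in the Lgr5med libraries and 19093589 to 23343499 in the Lgr5low libraries. Between 37.6% and 47.1% of them fell on ribosomal RNA of the mitochondrion, which left 10448900 to 12349560 counts for other genes. Correlations of log2 levels between libraries were 0.975 to 0.985 within Lgr5med, 0.966 to 0.980 within Lgr5low and 0.916 to 0.969 between the gates. Lgr5med replicate 1 stood apart from the other 2 Lgr5med libraries, with the highest stem cell transcripts and the lowest goblet transcripts of its gate, as given below.

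The gate labels were checked against the transcript of Lgr5. This check does not cover CD24, the other protein of the gates. Lgr5 (chr10:115450311-115587780 on GRCm38), the receptor gene whose reporter set the gates, was at 51.7, 15.7 and 19.0 CPM (counts scaled to library size) in Lgr5med replicates 1, 2 and 3, and at 5.77, 8.82 and 10.5 CPM in the Lgr5low libraries. The groups did not overlap, and Lgr5med replicate 1 was far above the other Lgr5med libraries. The means were 28.8 ± 19.9 and 8.37 ± 2.41 CPM (SD, n = 3), between 171 ± 61.9 CPM in Lgr5high and 1.30 ± 0.290 CPM in Lgr5neg cells. The log2 difference of Lgr5 was -1.61 (SE 0.474) and did not pass the threshold (adjusted p = 0.0829 by edgeR's quasi-likelihood test). It was called by DESeq2 (adjusted p = 0.0167), and also by edgeR without the mouse of replicate 1, where the difference was smaller (-0.85, adjusted p = 0.0126). Without the low-count filter edgeR also called Lgr5, at almost the same difference as in the main fit (-1.62, adjusted p = 1.38e-20). The cause of that much smaller p was not tested. With the filter, leaving out any 1 of the 6 libraries gave no call of Lgr5 (adjusted p = 0.0780 to 0.139). Epcam, an epithelial surface protein, was at 668 ± 18.5 and 695 ± 31.4 CPM. Of the markers that the sort should have removed, Ptprc (CD45) had 2 to 8 counts per library, while Cdh5 of endothelium and Col1a1 and Pdgfra of mesenchyme had 0 counts in all 6 libraries, where a count of 0 allows up to 0.122 to 0.140 CPM. Pecam1 (CD31) had 0 to 14 counts per library. These limits cover counting error only.

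Of 14203 genes tested, 1523 (10.7%) were called at an adjusted p under 0.05. Of these, 1035 (7.29% of all tested) were higher in Lgr5low and 488 (3.44%) were lower, and 1521 went the same way in all 3 mice. A difference of more than 2-fold was seen for 422 of the higher and 123 of the lower genes, and the median of all genes tested was -0.00 on the log2 scale. The 3 libraries of one gate all lay above the 3 of the other for 1423 of the called genes, and for 4071 (28.7%) of all genes tested. The number of calls leaned on single libraries: it was 528 without Lgr5med replicate 1, 798 without Lgr5low replicate 1, 853 without Lgr5low replicate 3, 930 without Lgr5med replicate 3 and 986 without Lgr5med replicate 2, and 1218 without Lgr5low replicate 2. Of the 528, 526 were among the 1523. In sorted bulk populations, fewer cells of a type and less RNA per cell cannot be told apart.

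**Figure D1:**
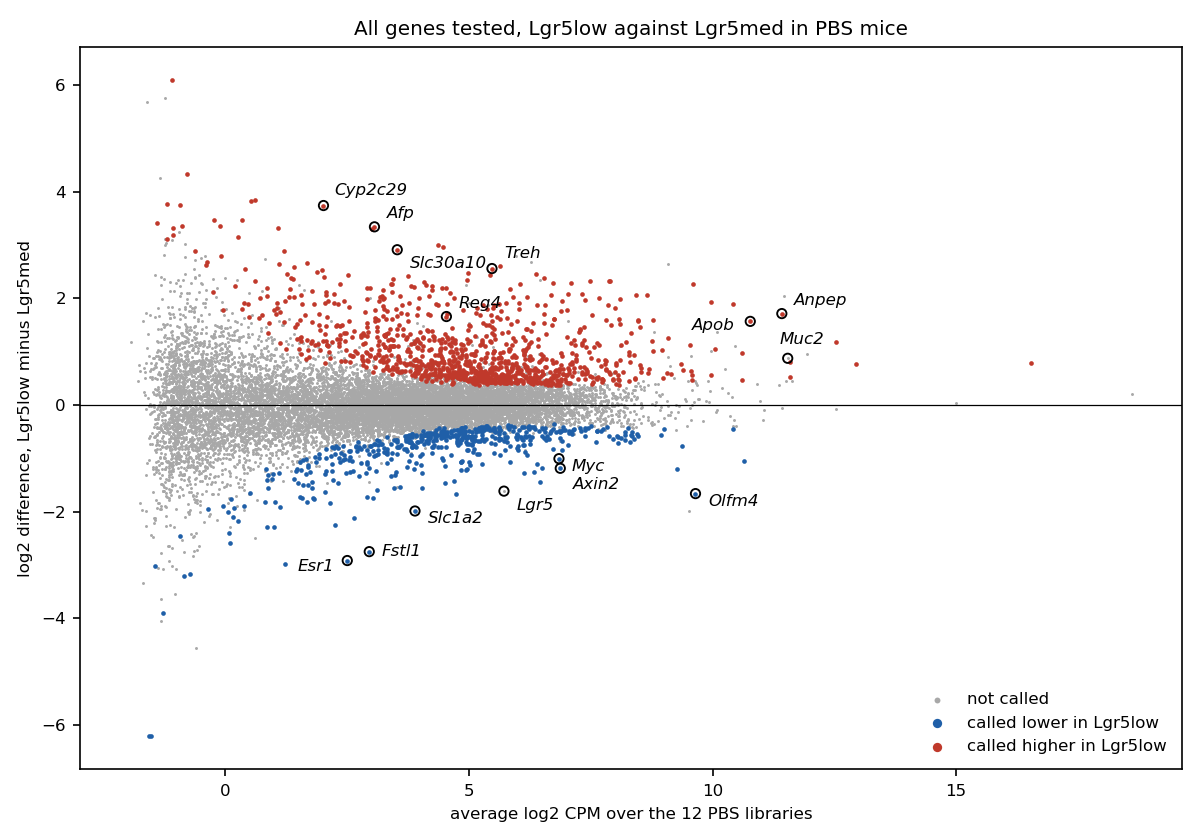
Each point is 1 of 14203 genes tested. The x axis gives the average log2 CPM over the 12 PBS libraries and the y axis the log2 difference, Lgr5low minus Lgr5med. Red points (1035) were called higher and blue points (488) lower in Lgr5low, and circled genes are named in the text, among them Lgr5 and Muc2, which were not called.

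The 3 genes that mark the step, Axin2, Apob and Anpep, differed in every mouse. Axin2 (chr11:108920349-108950783), a scaffold of the β-catenin destruction complex and a feedback target of Wnt, was at 158, 97.8 and 109.6 CPM in Lgr5med and at 52.6, 50.7 and 54.7 CPM in Lgr5low cells. All Lgr5low libraries were below all Lgr5med libraries and lay close together. Its log2 difference was -1.19 (SE 0.135, adjusted p = 2.36e-05). Apob (chr12:7977648-8016835), the structural protein of chylomicrons, was at 351, 315 and 367 CPM in Lgr5med and at 1197, 734 and 1178 CPM in Lgr5low cells. Replicate 2 was lowest in both gates. The log2 difference of Apob was 1.57 (SE 0.149, adjusted p = 7.11e-06). Anpep (chr7:79821803-79861059), the brush border aminopeptidase N, was at 253, 228 and 299 CPM in Lgr5med and at 1149, 573 and 889.7 CPM in Lgr5low cells. Again the Lgr5low library of replicate 2 was the lowest of its gate and still above every Lgr5med library. The log2 difference of Anpep was 1.72 (SE 0.182, adjusted p = 1.81e-05). The calls of all 3 genes held when any 1 of the 6 libraries was left out.

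**Figure D2:**
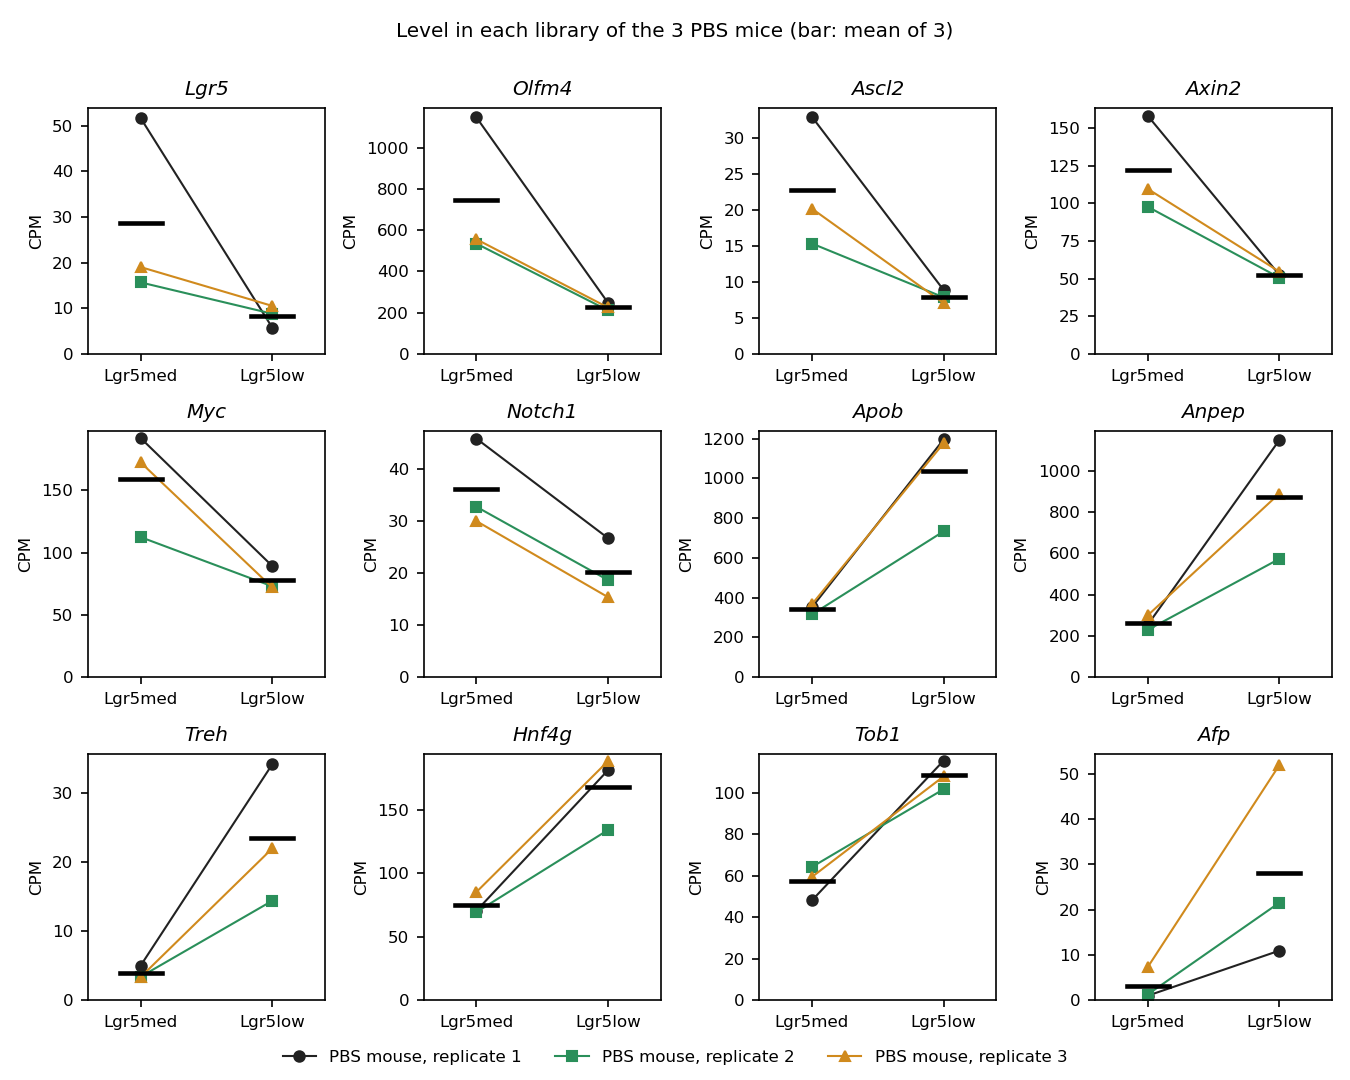
CPM of 12 genes (y axes, linear scale) in the Lgr5med and Lgr5low libraries of the 3 PBS mice, with a line joining the libraries of 1 mouse. All lines of Lgr5, Olfm4, Ascl2, Axin2, Myc and Notch1 go down and all lines of Apob, Anpep, Treh, Hnf4g, Tob1 and Afp go up from Lgr5med to Lgr5low.

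Stem cell transcripts were lower in Lgr5low cells. Of 31 markers of crypt base columnar cells, 26 were called lower and 0 higher, with a median log2 difference of -1.06. The 5 that were not called were Lgr5, Pdgfa, Vdr, Bmi1 and Tert, and the last 2 had positive differences (0.09 and 0.35). Olfm4, a secreted glycoprotein used as a stem cell marker, was at 1147, 535 and 556 CPM in Lgr5med and at 248, 212 and 226 CPM in Lgr5low cells. The Lgr5low libraries were alike, while Lgr5med replicate 1 held about as much again as each of the other 2. The log2 difference of Olfm4 was -1.66 (SE 0.243, adjusted p = 0.000735). Ascl2, the transcription factor that maintains the stem cell state, was at 33.0, 15.4 and 20.2 CPM in Lgr5med and at 8.88, 7.88 and 7.08 CPM in Lgr5low cells (log2 difference -1.47, SE 0.169, adjusted p = 2.36e-05). The RNA-binding protein gene Msi1 (-1.67, adjusted p = 2.55e-05) and the hyaluronan receptor gene Cd44 (-1.26, adjusted p = 2.36e-05) were also lower. The summed level of the list was 3988 to 6878 CPM in Lgr5med and 2182 to 2663 CPM in Lgr5low libraries. Between 18 (without Lgr5med replicate 1) and 24 of the 31 were called lower when single libraries were left out.

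Of 27 Wnt feedback and target genes tested, 13 were called lower and 0 higher, with a median log2 difference of -0.63. Several of the called genes, among them Ascl2 and Cd44, are also in the stem cell list, so these counts are not separate from those above. Beside Axin2, Ascl2 and Cd44, the called genes included Tcf7 (-1.26, adjusted p = 0.000453), which encodes a nuclear partner of β-catenin. The T cell factor gene Lef1 (0.01), the coreceptor gene Lrp6 (0.04), the receptor gene Fzd5 (0.08) and the target gene Sp5 (-0.10) were not called. Outside the list, the secreted Wnt inhibitor gene Sfrp5, at 12.2, 8.12 and 11.4 CPM in Lgr5med, was at 4.40, 2.42 and 3.73 CPM in Lgr5low cells. Its log2 differences in the 3 mice lay close together, and the fitted value was -1.59 (SE 0.204, adjusted p = 5.44e-05).

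Other genes with the largest negative differences were of low abundance. Esr1, the estrogen receptor alpha gene, was at 7.24, 3.09 and 2.48 CPM in Lgr5med and at 0.457, 0.537 and 0.606 CPM in Lgr5low cells (log2 difference -2.92, SE 0.368, adjusted p = 4.63e-05). Fstl1, which encodes a secreted follistatin-like glycoprotein, was at 6.98 ± 2.75 and 0.994 ± 0.503 CPM (-2.75, adjusted p = 0.00172). Slc1a2, a glutamate transporter gene, was at 20.8, 4.59 and 12.9 CPM in Lgr5med and at 3.15, 1.70 and 4.15 CPM in Lgr5low cells. The lowest Lgr5med library of Slc1a2 was only just above the highest Lgr5low library, yet the gene was lower in each mouse (-1.99, SE 0.237, adjusted p = 3.76e-05). Fam49a (-1.83) and Bex1 (-1.73) followed the same direction. Arl4c and Cyp2e1 also passed the rule for the largest changes, but both lost the call without Lgr5med replicate 1 (adjusted p = 0.19 and 0.118). Arl4c lost it without Lgr5med replicate 3 (0.12) and Lgr5low replicate 3 (0.0931) as well, and Cyp2e1 without Lgr5med replicate 2 (0.0688) and Lgr5low replicate 1 (0.0744).

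Digestive enzymes of the brush border had the largest median of all lists. Of 23 tested, 20 were called higher in Lgr5low cells and 0 lower, and the median log2 difference was 1.89. Treh (chr9:44673233-44686305), which encodes the enzyme that splits trehalose, was at 4.98, 3.37 and 3.32 CPM in Lgr5med and at 34.1, 14.4 and 21.9 CPM in Lgr5low cells. Its Lgr5low values spread over more than the whole Lgr5med range, and the gates did not overlap. The log2 difference of Treh was 2.56 (SE 0.300, adjusted p = 0.000350). The peptidase genes Mme (1.35, adjusted p = 1.94e-05) and Enpep (1.57, adjusted p = 8.06e-05) were also higher, as was the sucrase-isomaltase gene Sis, at 145 ± 53.6 and 525 ± 136 CPM (1.89, adjusted p = 0.00207). The intestinal alkaline phosphatase gene Alpi, at 61.8 ± 18.2 and 263 ± 97.9 CPM, had an adjusted p of 0.0157, which became 0.0747 without Lgr5med replicate 1, 0.0592 without Lgr5med replicate 2 and 0.0518 without Lgr5low replicate 3. The number of hydrolases called was 12 without Lgr5med replicate 1 and 14 to 20 without any other single library.

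Genes of fat absorption and chylomicron assembly were higher in Lgr5low cells in 27 of 34 cases, with none lower and a median of 1.19. Beside Apob, they included Slc27a4, a fatty acid transport protein of enterocytes, at 16.5 ± 1.72 and 50.3 ± 8.86 CPM (1.61, adjusted p = 3.76e-05). Abcg8, a subunit of the sterol exporter, was at 18.6 ± 1.65 and 41.5 ± 7.87 CPM (1.14, adjusted p = 1.94e-05). The summed level of the list was 2390.2 to 2704 CPM in Lgr5med and 5085 to 7172 CPM in Lgr5low libraries. The count of 27 was 14 without Lgr5med replicate 1 and 15 without Lgr5low replicate 3. Fabp1, the abundant fatty acid binding protein of enterocytes, was at 133 ± 28.9 and 509 ± 143 CPM, with an adjusted p of 0.0404. That p was above the threshold without any 1 library other than Lgr5low replicate 2, and reached 0.208 without Lgr5med replicate 1.

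Transporters for nutrients, ions and bile acids were called higher in 25 of 37 cases and lower in none, with a median of 1.24. Slc30a10, a manganese exporter gene, was at 0.951, 0.609 and 0.889 CPM in Lgr5med and at 9.09, 4.03 and 5.82 CPM in Lgr5low cells (2.92, SE 0.307, adjusted p = 1.94e-05). Slc7a9, the light chain of the cystine and dibasic amino acid transporter, was at 7.54 ± 0.980 and 21.5 ± 3.81 CPM (1.5, adjusted p = 1.81e-05). Slc6a20a, an imino acid transporter gene, was at 7.50 ± 1.14 and 28.0 ± 6.70 CPM (1.88, adjusted p = 3.76e-05). The peptide transporter gene Slc15a1 rose from 4.58 ± 1.25 to 25.4 ± 7.60 CPM between the gates, but its call ended without Lgr5med replicate 1 (adjusted p = 0.127), Lgr5med replicate 3 (0.0758), Lgr5low replicate 1 (0.0862) or Lgr5low replicate 3 (0.0599). The lactate transporter gene Slc5a12, which is not in the list, lost its call without Lgr5med replicate 1 (0.107), replicate 2 (0.0565) or replicate 3 (0.0682). The count of transporters called was 13 without Lgr5med replicate 1 and 15 without Lgr5low replicate 1 or Lgr5low replicate 3.

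Of 38 genes of xenobiotic and retinoid metabolism, 33 were called, all higher in Lgr5low, with a median of 1.20. Outside the list, Cyp2c29, a drug-metabolising cytochrome P450 gene, was at 0.317, 0.244 and 0.374 CPM in Lgr5med and at 4.98, 2.82 and 4.66 CPM in Lgr5low cells (3.74, SE 0.542, adjusted p = 0.000335), the largest difference named by the rule for the largest changes. It belongs to a cluster of near-identical genes, so reads may be split with its neighbours. Abcc2, the apical export pump for conjugates, was at 38.7, 31.6 and 37.1 CPM in Lgr5med and at 113, 72.7 and 104 CPM in Lgr5low cells. Its log2 difference was 1.42 (SE 0.133, adjusted p = 7.11e-06). The sulfotransferase gene Sult1d1 (1.05, adjusted p = 2.36e-05) and the carboxylesterase gene Ces2e (1.43, adjusted p = 2.86e-05), both of multigene families, were higher too. The cytochrome gene Cyp2b10 lost its call without any single library other than Lgr5low replicate 2, with adjusted p-values of 0.114 to 0.219. Without Lgr5med replicate 1, 21 members of the list were called.

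Of 24 structural genes of the microvillus tested, 16 were called higher and none lower, with a median of 0.70, and the count was 10 without Lgr5med replicate 1. Cdhr2, a protocadherin that links neighbouring microvilli, was at 50.9 ± 7.50 and 111 ± 12.2 CPM (1.13, adjusted p = 0.000109). Pls1, which bundles actin in the microvillus core, was at 93.8 ± 7.17 and 189 ± 24.1 CPM (1.01, adjusted p = 0.000120). Tmigd1, an adhesion protein gene, was at 0.760 ± 0.354 and 3.48 ± 1.38 CPM (2.19, adjusted p = 0.000351).

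**Figure D3:**
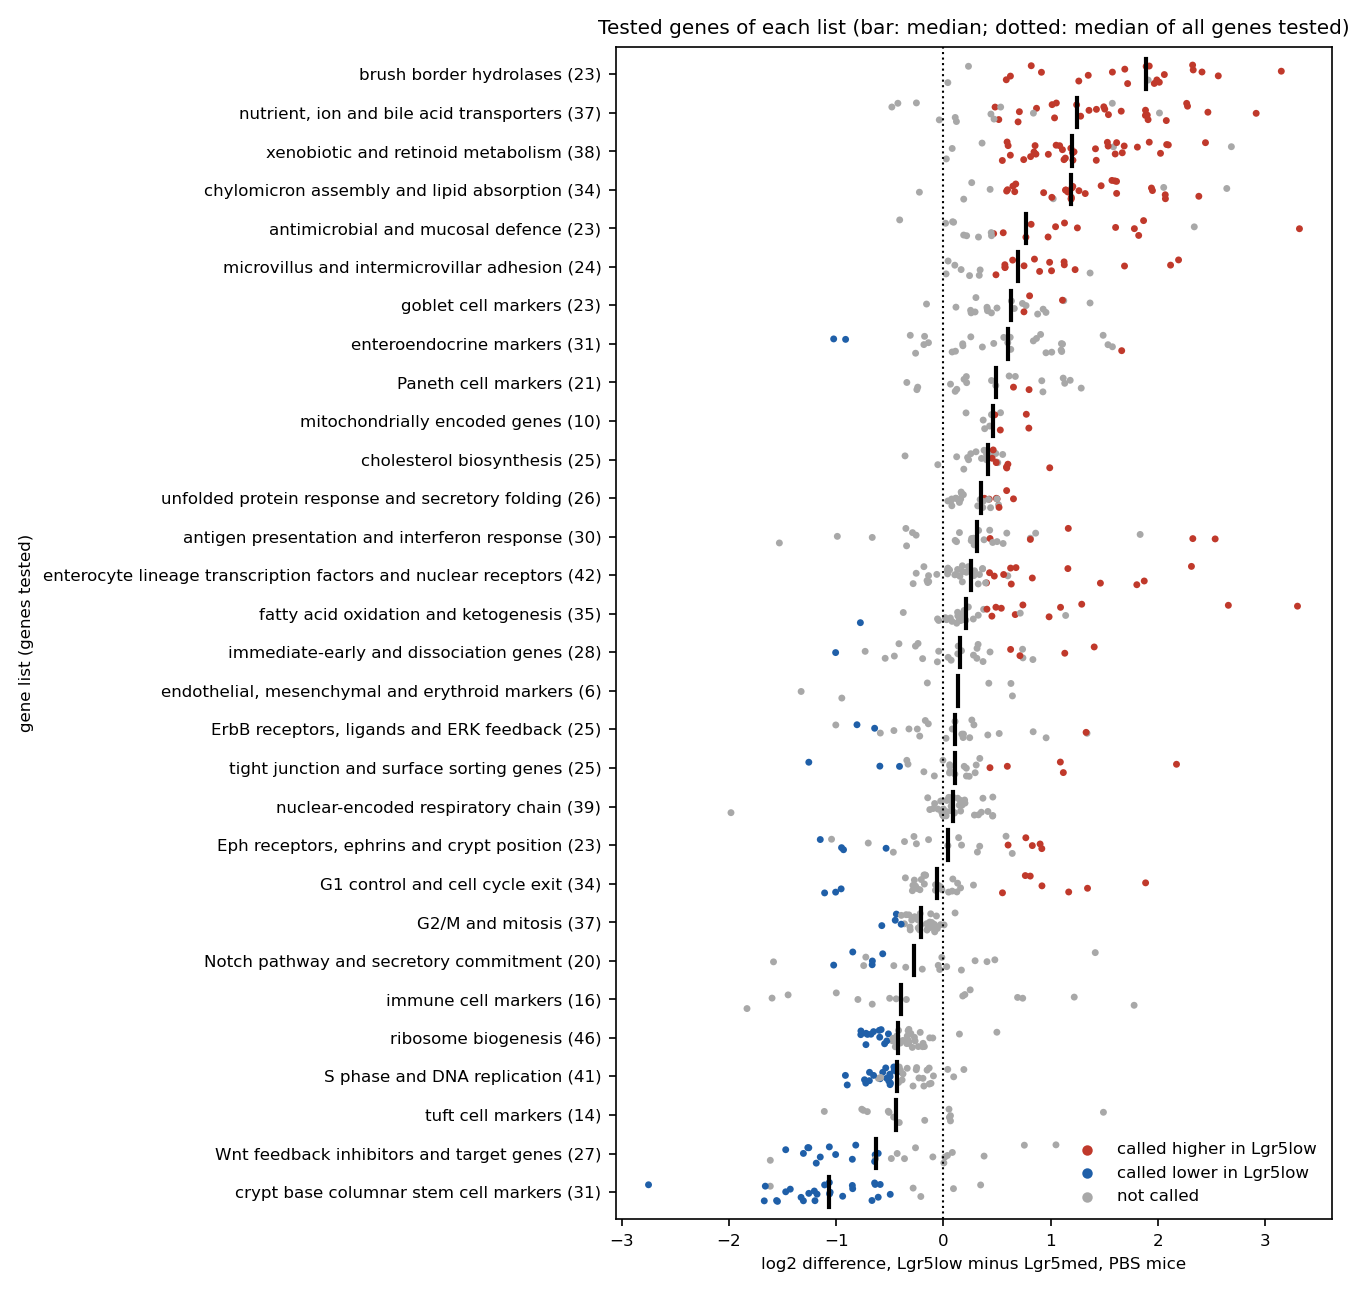
Log2 difference, Lgr5low minus Lgr5med (x axis), of every tested gene of 30 gene lists (rows, with the number tested), with red and blue points called higher and lower and a black bar at each list's median. The medians run from 1.89 for brush border hydrolases to -1.06 for stem cell markers, and the dotted line marks the median of all genes tested.

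Of 42 transcription factors and nuclear receptors of the enterocyte lineage, 13 were called higher and none lower, with a median of 0.26. Hnf4g (chr3:3508030-3658052), a nuclear receptor of the absorptive lineage, was at 70.4, 69.3 and 85.2 CPM in Lgr5med and at 181, 134 and 189 CPM in Lgr5low cells. The gates did not overlap, and the difference was 1.16 (SE 0.133, adjusted p = 2.36e-05). Its paralog Hnf4a, named here after its values were seen, was at 644 ± 19.8 and 587 ± 66.9 CPM, with a difference of -0.14 that was not called (adjusted p = 0.562). Creb3l3, a membrane-bound activator of lipid genes, was at 10.1 ± 1.95 and 36.0 ± 9.90 CPM (1.80, adjusted p = 2.36e-05). The homeobox gene Cdx2 (0.11) and the receptor gene Vdr (-0.28) were not called. The count of 13 was 4 without Lgr5med replicate 1, 6 without Lgr5low replicate 1 or Lgr5low replicate 3 and 7 without Lgr5med replicate 2.

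Promoter sequence was examined because many absorptive genes moved together and HNF4 factors bind promoters of such genes. RefSeq promoters on GRCm38.p6, 250 bases before to 50 bases after the start, were matched by symbol for 9901 of the genes tested (12653 promoters). The HNF4 sequence CAAAGTCCA, searched on both strands, stood in 21 of 1002 promoters of genes called higher in Lgr5low (2.1%). It stood in 1 of 472 promoters of genes called lower (0.212%) and in 66 of all 12653 (0.522%). The 21 promoters belong to 20 genes. Windows of 29 bases around the match are shown for the 8 of these genes with the lowest p, chosen after their values were seen, with the match in capitals and written on the strand that carries it.
Sult1b1: gtgagcaggcCAAAGTCCAttcctggtgg
Nat8: ggcagggagcCAAAGTCCAcctgagcttg
Cyp2c65: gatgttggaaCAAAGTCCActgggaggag
Sec16b: tagagactgaCAAAGTCCAggtgccacat
Hsd3b3: ctggaagcttCAAAGTCCActttcagtga
Treh: ccaggtcagcCAAAGTCCAggctatgagg
Btnl2: gaacagagccCAAAGTCCAcctgccttcc
Slc3a1: cttggctggaCAAAGTCCAgccatgatta

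The windows lie at chr5:87536179-87536207 (minus strand) for Sult1b1, chr6:85832259-85832287 (plus) for Nat8, chr19:39060880-39060908 (plus) for Cyp2c65 and chr1:157526126-157526154 (minus) for Sec16b. Those of Hsd3b3 (1 of its 2 matching promoters), Treh, Btnl2 and Slc3a1 lie at chr3:98763106-98763134 (plus), chr9:44673152-44673180 (minus), chr17:34354771-34354799 (plus) and chr17:85028298-85028326 (plus). All are within 116 bases of an annotated start, Cyp2c65 being the farthest and Nat8 the nearest. The log2 differences of these genes were 1.14 for the sulfotransferase gene Sult1b1, 2.17 for the acetyltransferase gene Nat8, 1.08 for Cyp2c65, 0.99 for Sec16b, 1.10 for the steroid dehydrogenase gene Hsd3b3, 2.56 for Treh, 1.81 for the butyrophilin-like gene Btnl2 and 1.01 for Slc3a1, the heavy chain partner of Slc7a9. Their calls held without any 1 of the 6 libraries. The TCF/LEF sequence CTTTGAT stood in 2.69% of promoters of higher genes, 2.75% of lower genes and 2.54% of all. The CDX sequence TTTATNG stood in 9.48%, 6.57% and 7.15%, and the TATA box TATAAA, which can overlap it on the other strand, in 11.6%, 8.47% and 7.66%. The HNF1 palindrome stood in 0.299%, 0% and 0.0711%. The E box GCCACGTG stood in 0.998% of promoters of higher genes, 1.06% of lower genes and 1.72% of all. A match describes these letters and is not evidence of binding.

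Fuel metabolism changed in part. Of 35 genes of fatty acid oxidation and ketogenesis, 11 were called higher and 1 lower, with a median of 0.21. The carnitine acetyltransferase gene Crat was at 14.9 ± 0.744 and 29.8 ± 4.71 CPM (0.99, adjusted p = 0.000796). Acot12, an acetyl-CoA hydrolase gene, was at 0.362, 0.772 and 0.234 CPM in Lgr5med and at 6.27, 3.27 and 4.80 CPM in Lgr5low cells (3.30, SE 0.501, adjusted p = 0.00111). The count of 11 was 6 without Lgr5med replicate 1 or Lgr5low replicate 3, and 7 without Lgr5med replicate 2, Lgr5med replicate 3 or Lgr5low replicate 1, and the count of 1 was 0 without Lgr5med replicate 1. Of 39 nuclear-encoded respiratory chain genes none was called, and the median was 0.09. Atp5b, a subunit of the ATP synthase, was at 2581 ± 97.2 and 2493 ± 393 CPM. Cholesterol synthesis genes were called higher in 8 of 25 cases, led by the sterol oxidase gene Msmo1 (0.99, adjusted p = 0.000551). That count was 1 without Lgr5med replicate 1, 2 without Lgr5low replicate 1, 3 without Lgr5med replicate 2 or 3 and 5 without Lgr5low replicate 3.

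Mitochondrially encoded transcripts were higher in Lgr5low cells for 4 of 10 genes tested, with a median of 0.46. The cytochrome oxidase gene mt-Co1 was at 4638, 3773 and 4201 CPM in Lgr5med and at 7443, 6194 and 8052 CPM in Lgr5low cells (0.77, SE 0.145, adjusted p = 0.00155). The small ribosomal RNA mt-Rnr1 was also higher (0.80, adjusted p = 0.00400), while the large ribosomal RNA mt-Rnr2 had a difference of 0.21 that was not called. Per 100 counts of mt-Rnr2 there were 18.5 to 20.5 counts of mt-Rnr1 in Lgr5med and 27.6 to 32.1 in Lgr5low libraries, without overlap. Elsewhere the ratio did not follow the gate: it was 18.1, 24.2 and 42.9 in the Lgr5high and 20.2 to 24.5 in the Lgr5neg libraries of PBS mice. In NRG1 mice the ratio overlapped between Lgr5med (38 to 51.3) and Lgr5low (38.4 to 54.2). The calls of mt-Nd4 and mt-Cytb ended without any 1 library other than Lgr5low replicate 2, with adjusted p-values of 0.0819 to 0.187 for mt-Nd4 and 0.0586 to 0.198 for mt-Cytb. This left 2 called in each of those cases. Whether RNA quality differed between the gates was not tested.

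Of 41 genes of S phase and DNA replication, 19 were called lower and none higher, with a median of -0.43. Pola1, the catalytic subunit of DNA polymerase alpha, was at 44.1, 38.7 and 43.5 CPM in Lgr5med and at 23.2, 30.1 and 22.9 CPM in Lgr5low cells (-0.74, SE 0.140, adjusted p = 0.00173). The helicase subunit gene Mcm3 (-0.69) and the S phase activator gene E2f1 (-0.91) were called as well, but lost the call without Lgr5med replicate 1 (adjusted p = 0.0752 and 0.0999) and without Lgr5low replicate 3 (0.0565 and 0.0590). E2f1 also lost it without Lgr5med replicate 3 (0.0714) or Lgr5low replicate 1 (0.0578). The count of 19 rested on single libraries, being 1 without Lgr5med replicate 1, 4 without Lgr5med replicate 3 or Lgr5low replicate 3, 6 without Lgr5low replicate 1, 8 without Lgr5low replicate 2 and 9 without Lgr5med replicate 2. Of 37 genes of G2/M and mitosis, 4 were called lower, with a median of -0.21, and no more than 1 was called when any 1 library was left out. The proliferation marker Mki67, named after its values were seen, was at 784 ± 35.5 and 664 ± 79.0 CPM, and its difference of -0.24 was not called (adjusted p = 0.474). In Lgr5neg cells Mki67 was at 36.0 ± 12.3 CPM.

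Ribosome biogenesis genes were called lower in 14 of 46 cases and higher in none, with a median of -0.42. Gnl3 (nucleostemin) was at 36.2, 35.9 and 38.7 CPM in Lgr5med and at 21.5, 24.5 and 21.9 CPM in Lgr5low cells (-0.71, SE 0.129, adjusted p = 0.00117). The nucleolar genes Wdr43 (-0.72, adjusted p = 0.000724) and Ncl (-0.77, adjusted p = 0.00169) were lower too. The count was 5 without Lgr5med replicate 1 and 9 without Lgr5low replicate 1 or Lgr5low replicate 3. Myc, a transcription factor known to activate genes of this kind, was at 192, 112 and 172 CPM in Lgr5med and at 89.2, 72.9 and 72.0 CPM in Lgr5low cells, without overlap (-1.01, SE 0.177, adjusted p = 0.00137). Its relative Mycl was lower as well (-0.95, adjusted p = 0.000503). Whether Myc or Mycl had a part in the lower levels of ribosome biogenesis genes was not tested.

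Of 34 regulators of G1 and cell cycle exit tested, 7 were called higher and 3 lower, 24 were not called, and the median was -0.06. The 3 lower genes were Myc, Mycl and Cdk6, a kinase that opens the cell cycle, at 106 ± 24.8 and 48.2 ± 4.24 CPM (-1.11, adjusted p = 0.000145). Among the 7 higher genes, Tob1, an antiproliferative factor gene, was at 48.0, 64.1 and 59.3 CPM in Lgr5med and at 115, 102 and 108 CPM in Lgr5low cells (0.92, SE 0.139, adjusted p = 0.000254). Cdkn2b, which encodes the kinase inhibitor p15, was at 5.6 ± 1.12 and 14.2 ± 3.09 CPM (1.34, adjusted p = 0.000660), and the retinoblastoma gene Rb1 at 32.6 ± 5.38 and 57.2 ± 7.57 CPM (0.81, adjusted p = 0.00109).

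The Notch pathway and secretory commitment list had 5 of 20 genes lower, none higher and a median of -0.27. The receptor gene Notch1 was at 45.9, 32.8 and 30.0 CPM in Lgr5med and at 26.7, 18.7 and 15.4 CPM in Lgr5low cells (-0.85, SE 0.143, adjusted p = 0.000675). The Notch regulator gene Dtx4 (-0.66, adjusted p = 0.00393; 0.0507 without Lgr5low replicate 3) and the Notch target gene Hes1 (-0.57, adjusted p = 0.00938) were lower. Hes1 lost its call without Lgr5med replicate 1 (0.0823), Lgr5med replicate 3 (0.0577) or Lgr5low replicate 3 (0.0821). Neurog3, the factor that commits cells to the enteroendocrine fate, was at 5.48, 7.39 and 5.71 CPM in Lgr5med and at 2.49, 3.58 and 3.12 CPM in Lgr5low cells (-1.02, SE 0.292, adjusted p = 0.0276). The call of Neurog3 did not hold without any of the 6 libraries in turn (adjusted p = 0.0565 to 0.238). The count of 5 was 3 without Lgr5low replicate 1 or Lgr5low replicate 2, 2 without Lgr5med replicate 1 or Lgr5med replicate 3 and 1 without Lgr5low replicate 3.

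Secretory cell markers were present in both gates and varied between mice. Of 23 goblet markers, 3 were called higher and none lower, with a median of 0.63. Muc2, the main mucin of goblet cells, was at 1655, 4078 and 5046 CPM in Lgr5med and at 4706, 6116 and 7504 CPM in Lgr5low cells. The gates overlapped, with Lgr5med replicate 1 well below the other Lgr5med libraries, and the difference of 0.88 was not called (adjusted p = 0.173). The 3 called genes, Rep15, Klk1 and Capn9, each lost the call without at least 4 of the 6 libraries in turn (without Lgr5med replicate 1, the adjusted p was 0.130, 0.160 and 0.186). The count was 0 without Lgr5med replicate 1, Lgr5med replicate 2, Lgr5low replicate 1 or Lgr5low replicate 3, and 6 without Lgr5low replicate 2. Summed goblet markers were 6175 to 17083 CPM in Lgr5med and 15187 to 27621 CPM in Lgr5low libraries, Paneth markers 1752 to 4105 and 1489.6 to 5689 CPM, and enteroendocrine markers 344 to 791 and 422 to 1511 CPM. Among the enteroendocrine and Paneth lists, 2 of 21 Paneth genes were higher, and 1 of 31 enteroendocrine genes was higher and 2 lower. Over all genes tested, 7.29% were called higher and 3.44% lower. The Paneth count was 0 without Lgr5med replicate 1, 1 without Lgr5med replicate 3, Lgr5low replicate 2 or Lgr5low replicate 3, and 6 without Lgr5low replicate 1. The lower enteroendocrine count was 0 without Lgr5med replicate 1 and 1 without any other single library, and the higher count was 2 without Lgr5med replicate 3 or Lgr5low replicate 2. The higher enteroendocrine gene was Reg4, a secreted lectin also made by other secretory cells, at 8.28, 21.9 and 23.7 CPM in Lgr5med and at 25.2, 46.9 and 106 CPM in Lgr5low cells. Each mouse showed the difference although the gates nearly met (1.66, SE 0.213, adjusted p = 0.000126). Without a mouse term in the model the adjusted p of Reg4 was 0.142, and without the mouse of replicate 1 it was 0.0622. None of 14 tuft, 16 immune or 6 endothelial, mesenchymal and erythroid markers tested was called, and summed immune markers were 33.5 to 70.6 CPM in Lgr5med and 33.8 to 59.1 CPM in Lgr5low libraries. The part of secretory cells in the other results was not tested.

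Mucosal defence genes were called higher in 13 of 23 cases and lower in none, with a median of 0.77. The cytokine gene Il18 was at 1.18, 1.02 and 2.1 CPM in Lgr5med and at 7.51, 3.67 and 4.85 CPM in Lgr5low cells (1.87, SE 0.269, adjusted p = 0.000163). Reg3a, an antimicrobial lectin of a multigene family (1.82, adjusted p = 0.000248), and Lgals3, which encodes galectin-3 (1.78, adjusted p = 0.000707), were higher, as was, outside the list, Nlrp9b, an inflammasome sensor gene of the intestinal epithelium, at 2.13 ± 0.615 and 11.9 ± 3.85 CPM (2.47, adjusted p = 0.00501). The count was 6 without Lgr5med replicate 1, 7 without Lgr5low replicate 1 or Lgr5low replicate 3 and 8 without Lgr5med replicate 2. Of 30 genes of antigen presentation and the interferon response, 5 were higher, among them Ifit1 (2.53, adjusted p = 0.00115) and the interferon signal transducer gene Stat2 (0.81, adjusted p = 0.00374). Ifit1 was at 0.447 ± 0.191 and 2.73 ± 0.822 CPM, so its fold rests on few counts. The count of 5 was 3 without Lgr5med replicate 1 or Lgr5low replicate 1 and 2 without Lgr5low replicate 3.

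Some positional cues of the crypt moved, in both directions. Of 23 Eph receptors, ephrins and related genes, 5 were higher and 4 lower, where 7.29% of all genes tested were called higher and 3.44% lower. The ligand gene Efnb2 was at 27.5, 36.3 and 42.6 CPM in Lgr5med and at 69.4, 52.8 and 72.7 CPM in Lgr5low cells (0.90, SE 0.164, adjusted p = 0.00129). Ephb3, a receptor gene that Wnt activates at the crypt base, was at 31.7, 17.8 and 23.3 CPM in Lgr5med and at 9.84, 13.3 and 9.18 CPM in Lgr5low cells (-1.15, SE 0.219, adjusted p = 0.00266). Ephb2, which shares its ligands, was at 82.7 ± 6.86 and 64.2 ± 8.67 CPM and was not called (-0.36, adjusted p = 0.179). The ligand gene Efna4 was lower (-0.93, adjusted p = 0.00115). The count of higher genes was 1 without Lgr5med replicate 1 or Lgr5low replicate 1, 2 without Lgr5med replicate 2 and 3 without Lgr5low replicate 3, and that of lower genes was 2 without Lgr5med replicate 1 or Lgr5low replicate 1. Of 25 ErbB and ERK feedback genes, 1 was higher and 2 lower, where 7.29% of all genes tested were called higher and 3.44% lower. The higher count was 1 without Lgr5med replicate 3 or Lgr5low replicate 1 and 0 without any other single library, and the lower count was 0 without Lgr5med replicate 1, 2 without Lgr5med replicate 2 and 1 without any other library. The NRG1 receptor gene Erbb3, named for the treatment of the series, was at 130.0 ± 10.4 and 159 ± 17.3 CPM (0.28, adjusted p = 0.165).

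Afp was highest in Lgr5low cells among the 4 gates. This gene (chr5:90490737-90508907) encodes alpha-fetoprotein, a serum protein of the yolk sac and fetal liver. It was at 0.951, 1.22 and 7.25 CPM in Lgr5med and at 10.9, 21.5 and 51.9 CPM in Lgr5low cells. Replicate 3 was the highest in both gates, and each Lgr5low library was several times above the Lgr5med library of its mouse. The log2 difference was 3.34 (SE 0.426, adjusted p = 0.000551). The means were 0.396 ± 0.427 CPM in Lgr5high and 0.676 ± 0.497 CPM in Lgr5neg cells, so that the following step was -5.38, and the difference between the following step and this one was -8.73 (adjusted p = 5.82e-06). The call of Afp held without any 1 of the 6 libraries, while without the mouse of replicate 1 its adjusted p was 0.0739, and without a mouse term 0.0766.

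**Figure D4:**
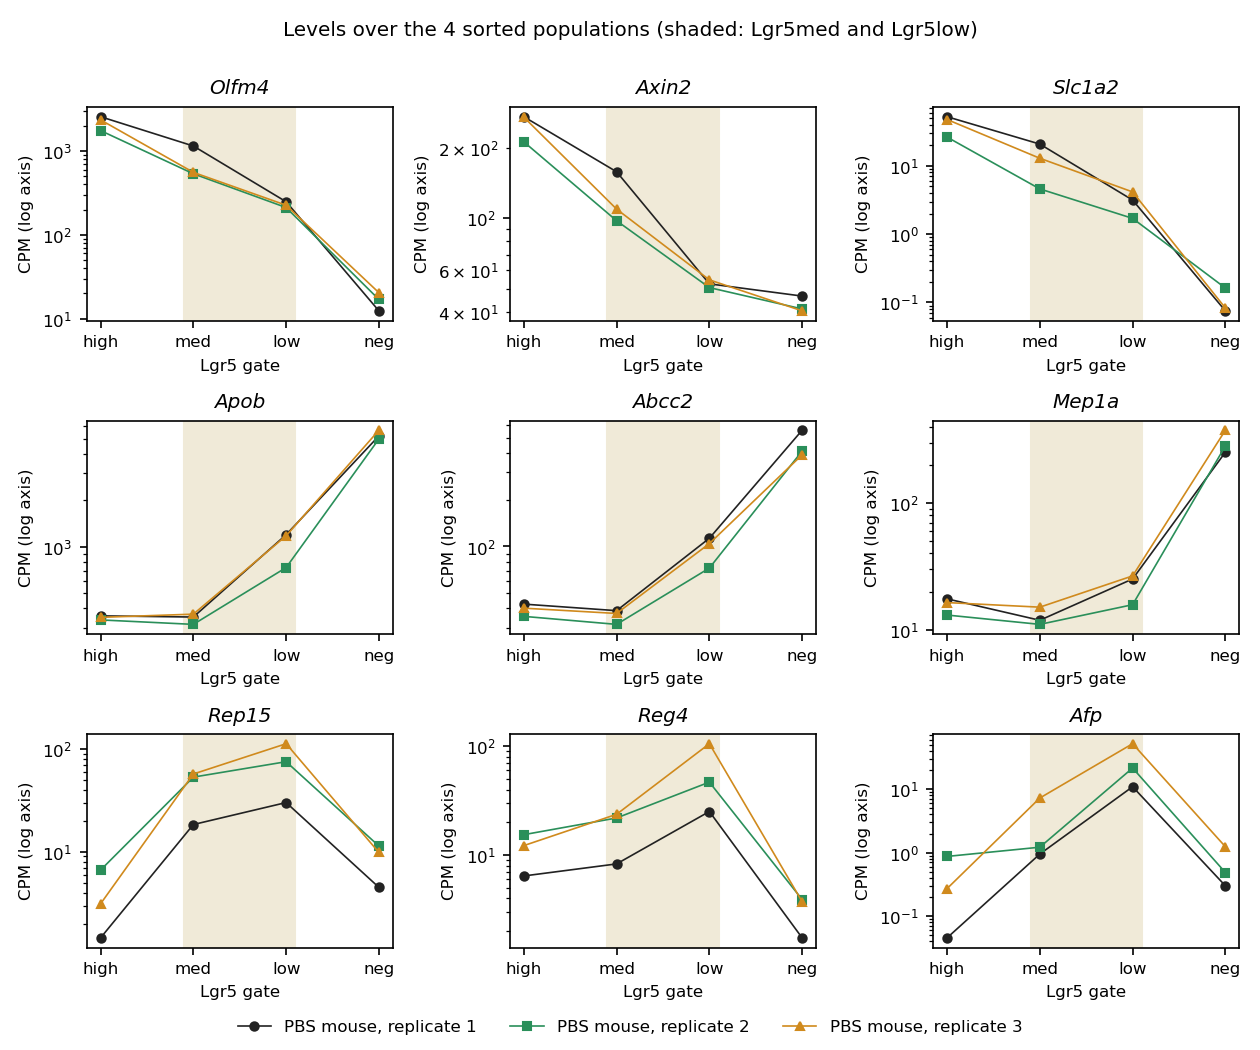
CPM (log axes) of 9 genes over the 4 gates of the 3 PBS mice, 1 line per mouse, with the Lgr5med and Lgr5low gates shaded. Apob and Abcc2 are level from Lgr5high to Lgr5med and higher in Lgr5low, Axin2 differs little between Lgr5low and Lgr5neg, and Rep15, Reg4 and Afp are highest in Lgr5low.

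The step from Lgr5med to Lgr5low was set against the steps before and after it, with which it shares libraries, by testing the difference between steps. Against the step from Lgr5high to Lgr5med, 88 genes (0.62%) were called, 23 with a larger value at the later step and 65 with a smaller one. Apob averaged 348 ± 10.6 CPM in the Lgr5high libraries and 344 ± 26.6 CPM in the next gate, so its earlier step was -0.02, against 1.57 here (difference 1.59, adjusted p = 0.00509). Abcc2 had steps of -0.14 and 1.42 (difference 1.56, adjusted p = 0.00273). The absorptive lists as a whole were not level before this step. Median earlier steps were 0.90 for brush border hydrolases, 0.65 for chylomicron genes, 0.59 for transporters and 0.75 for xenobiotic metabolism. Here the medians were 1.89, 1.19, 1.24 and 1.20, and at the following step 2.85, 2.48, 2.30 and 2.16. Sectm1b, which encodes a secreted and transmembrane protein, went down from 43.8 ± 14.3 CPM in Lgr5high to 22.7 ± 7.25 CPM in Lgr5med cells and up to 59.1 ± 18.3 CPM in Lgr5low cells (difference 2.29, adjusted p = 0.000640). In the other direction, the goblet gene Rep15 had an earlier step of 3.52 and a step of 0.75 here (difference -2.77, adjusted p = 0.00103). Syt7 (difference -2.32, adjusted p = 0.00103) and Dpysl2 (-1.53, adjusted p = 0.00479), genes of vesicle release and the cytoskeleton, did likewise. The count of 88 was 3 without replicate 3, 134 without replicate 1 and 0 without a mouse term.

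Against the step from Lgr5low to Lgr5neg, 3812 genes (26.8%) were called, 1444 with a larger and 2368 with a smaller value at the following step. The peptidase genes Mep1a and Xpnpep2 had differences of 0.82 and 0.91 here, and of 3.77 and 3.89 at the following step (adjusted p = 8.63e-08 and 1.11e-07 for the difference between steps). The cholesterol exporter gene Abca1 had 0.66 here and 3.68 afterwards (adjusted p = 2.35e-07). The centromere gene Cenpf had -0.44 here and -4.33 afterwards (adjusted p = 6.05e-10), and Slfn9 -0.58 and -5.40 (adjusted p = 2.07e-09). Axin2 was the reverse: -1.19 here and -0.31 afterwards, from 52.7 ± 2.00 to 42.7 ± 3.44 CPM (difference 0.88, adjusted p = 0.00886). Tanc2 had a positive step of 0.54 here and one of -3.88 afterwards (difference -4.41, adjusted p = 6.05e-10). The counts were 2375 without replicate 2 and 2373 without replicate 3. Of the calls here, those of Cenpf, Slfn9, Tanc2 and Abca1 ended without Lgr5med replicate 1, with adjusted p-values of 0.182, 0.237, 0.131 and 0.0529, and without other single libraries, up to 0.212, 0.111, 0.131 and 0.0897.

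In the NRG1 mice, which share no library with the PBS mice, the same step gave 1371 calls among 15045 genes (9.11%), 1037 higher (6.89%) and 334 lower (2.22%) in Lgr5low. Of these, 790 were called in the same direction in PBS mice (624 higher, 166 lower), which is 51.9% of the PBS calls and 57.6% of the NRG1 calls, and none in the opposite direction. The NRG1 step was fitted on all 24 libraries, so the PBS libraries also entered its filter, scaling and spread. The calls of the treatments were thus not reached separately. Without 1 PBS mouse the NRG1 count was 1206 to 1491. The sign was the same for 1490 of the 1523 PBS calls (97.8%), against 72.7% of the 14203 genes tested in both. For stem cell markers 25 of 31 were called lower in NRG1 mice. Brush border hydrolases were called higher in 13 and chylomicron genes in 19 cases there. Other lists had far fewer calls in NRG1 mice than in PBS mice. S phase genes were called lower in 3 of 41 cases (median -0.21), against 19 in PBS mice. Ribosome biogenesis genes were called lower in 5 of 46 cases (median -0.29), against 14. Of 10 mitochondrially encoded genes none was called in NRG1 mice (median -0.03), against 4 in PBS mice. The steps of Axin2, Apob and Anpep in NRG1 mice were -1.13, 1.00 and 1.64 (adjusted p = 4.09e-05, 0.00189 and 0.00761). Goblet markers were called higher in 14 of 23 cases in NRG1 mice and unfolded protein response genes in 20 of 26, against 3 and 7 in PBS mice. Their medians were 0.93 and 0.52 in NRG1 mice and 0.63 and 0.35 in PBS mice. The PBS count of 7 was 0 without Lgr5med replicate 1 and 1 without Lgr5low replicate 3. It was 3 without Lgr5med replicate 2, Lgr5med replicate 3 or Lgr5low replicate 1. No gene was called in the test of the difference between the treatments' steps, with edgeR or with DESeq2, and 535 genes (3.56%) had an unadjusted p under 0.05, the smallest being 7.48e-05. Apob, at an unadjusted p of 0.0449 with an adjusted p of 1.00, and Abcc2 (steps of 1.42 and 0.76, unadjusted p = 0.00431, adjusted p = 1.00) were among them. The NRG1 count was 319 without NRG1 replicate 1 and 413 without NRG1 replicate 3.

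**Figure D5:**
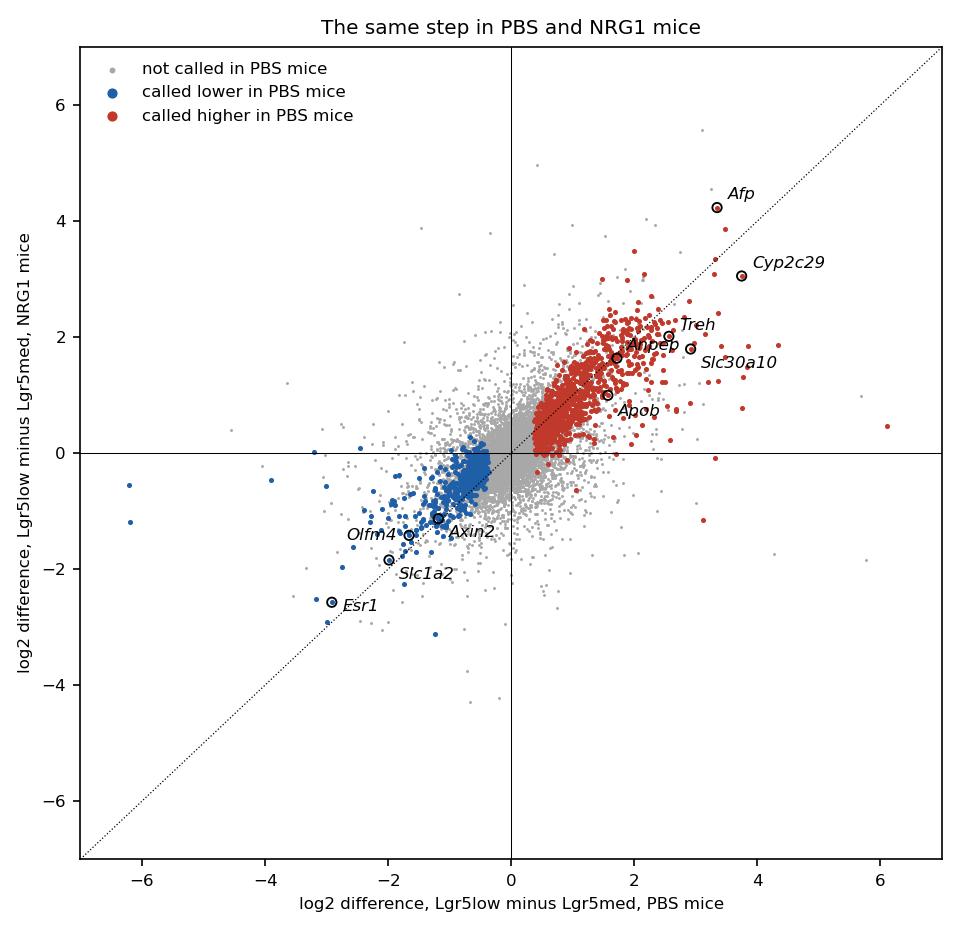
Each point is a gene tested in both treatments, with its log2 difference, Lgr5low minus Lgr5med, in PBS mice (x axis) and NRG1 mice (y axis), and a dotted line of equality. Points called in PBS mice (red higher, blue lower) lie mostly in the same-sign quadrants, 1490 of 1523.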

How the data were processed

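RNA was sequenced from sorted crypt populations. Per the labels' protocols, libraries were made from 15 ng of RNA and read as single reads of 76 nt. Per the submitters' processing notes, the authors aligned reads with STAR and counted them with featureCounts on GRCm38. Versions, annotation release and strand setting are not given in the sources used here, so overlapping and antisense genes cannot be told apart. The deposited table holds whole-number counts per gene symbol (43280 symbols), not normalised.

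Counts were tested in R 4.3.3 with edgeR 4.0.16 (quasi-likelihood, robust), after TMM scaling and filterByExpr (a count of at least 10 and a sum of at least 15). P-values were adjusted by Benjamini-Hochberg across every gene tested, with calls at an adjusted p under 0.05. The model held the 12 PBS libraries (6 residual degrees of freedom) with the mouse as a block. Each replicate number is 1 animal, per the description labels. Deviations from the gate means correlated at 0.350, 0.309 and 0.347 within a mouse and at -0.31 to 0.03 between mice. The NRG1 step and the difference between treatments came from the 24 libraries with 6 mice as blocks. All adjusted p-values are from edgeR unless DESeq2 1.42.0 is named. CPM are TMM-scaled over the 12 PBS libraries, given as mean ± SD of 3 mice. Log2 differences are Lgr5low minus Lgr5med, as edgeR's test returns them, which includes its small default prior count. Standard errors were derived from the unshrunk coefficient and the F statistic of the test.

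The 30 gene lists (904 entries, 869 distinct genes), the members and the rule for named genes were chosen with earlier results of these data known. The rule took the 3 markers and Lgr5; the 10 largest rises and 10 largest falls among called genes whose gates did not overlap, whose mice moved alike and whose average log2 CPM reached 2, without predicted genes; the 3 called members of lowest p per list and direction, or the most abundant member of a list with none; up to 5 called genes of the test between treatments; and the 3 of lowest p per direction in each test between steps. Genes named outside it were chosen after their values were seen. Lists were described by counts and medians, with no set test. Scripts were tested on simulated data. Coordinates are from GENCODE vM21. Alternatives were DESeq2, RLE scaling, no low-count filter, no mitochondrial ribosomal RNA, no mouse block, 6 libraries only, a 2-fold threshold, and each library or mouse left out. Some genes that the rule names are not reported here.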

Additional observations from a re-analysis of the deposited data

Results flagged for a closer look

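The step of mt-Cytb, the mitochondrial cytochrome b gene, was positive in all 3 PBS mice and negative in all 3 NRG1 mice. The fitted step of the NRG1 mice was close to no change. The call in PBS mice ended without any 1 library other than Lgr5low replicate 2 (adjusted p = 0.0586 to 0.198). In PBS mice the difference was 0.53 (adjusted p = 0.0249), from 2022 ± 264 to 2983 ± 768 CPM. In NRG1 mice it was -0.0375 (adjusted p = 0.928), from 4124 ± 150 to 4020 ± 142 CPM on a scale set over all 24 libraries. The test of the difference itself gave an unadjusted p of 0.0107 and an adjusted p of 1.00.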

How the results depend on the processing

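The 1523 calls of the PBS step were 1747 with DESeq2, 1533 with RLE scaling, 1824 without the low-count filter and 1523 without mitochondrial ribosomal RNA. With only the 6 libraries and the replicate block they were 2358, and 545 with the 2-fold threshold. Leaving out 1 library or 1 mouse gave 528 to 1218. On the pairing by mouse, with no replicate block there were 1078 calls, of which 1070 were among the 1523. The NRG1 step gave 1371 calls, 795 with no replicate block, 319 to 1112 without 1 NRG1 mouse and 1206 to 1491 without 1 PBS mouse. The difference between treatments gave 0 calls, and 12 without the low-count filter. The difference from the preceding step gave 88 calls, 208 with DESeq2, 374 without the low-count filter, 0 with no replicate block and 3 to 134 without 1 mouse. The difference from the following step gave 3812 calls and 2373 to 3225 without 1 mouse. Where the cause of a shift is not in the construction of the alternative, it was not tested. Of 113 named genes, Atp5b and Tas1r3 alone, neither of them called, changed sign under an alternative: Atp5b from -0.05 to 0.11 without Lgr5low replicate 1 and 0.09 without the mouse of replicate 1, and Tas1r3 from 0.06 to -0.12 without Lgr5med replicate 2, -0.14 without Lgr5low replicate 2 and -0.22 without the mouse of replicate 2. With DESeq2 2 lost the call and 1 gained it, with no replicate block 27 lost it, and without 1 library 13 to 40 lost it. With 3 mice, a gene's spread rests on few animals, and genes near the floor of 0.122 to 0.140 CPM have imprecise folds.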

Other observations

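Of 28 immediate-early and dissociation genes tested, 4 were called higher and 1 lower in Lgr5low cells, with a median log2 difference of 0.15. Over all genes tested, 7.29% were called higher and 3.44% lower. Zfp36, whose product speeds the decay of mRNAs, was at 65.9 and 109 CPM on average (0.71, adjusted p = 0.00187). The 4 higher calls were 1 without Lgr5med replicate 1 or Lgr5low replicate 3, and 2 without Lgr5med replicate 2 or Lgr5med replicate 3. The summed level was 739 to 1190.1 CPM in the Lgr5med libraries, against 749.5 to 1107 CPM in the Lgr5low libraries. The part of tissue handling in the other results was not tested.

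Of 25 tight junction and surface sorting genes tested, 5 were called higher and 3 lower, with a median of 0.11. The shares among all genes tested were 7.29% higher and 3.44% lower. Cldn23, a claudin gene, was at 5.01 and 11.0 CPM on average (1.12, adjusted p = 0.00115). The 5 higher calls were 1 without Lgr5med replicate 1, 2 without Lgr5low replicate 1 and 3 without Lgr5low replicate 3. The 3 lower calls were 2 without Lgr5low replicate 1 and 1 without any other single library. Cd81, a tetraspanin gene (-0.41, adjusted p = 0.0330), lost its call without each of the 6 libraries in turn (adjusted p = 0.0572 to 0.190).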
